A study of Mus musculus with 11 samples.

Results

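A set of 10 genes that move calcium into, out of and within cells was followed in the aortic arch of young mice carrying a Loeys-Dietz syndrome type II mutation, and 1 of them, Ryr2, passed the test between genotypes. Ryr2, the ryanodine receptor that releases calcium from the internal store of heart and smooth muscle, averaged 6.60 ± 1.24 CPM (counts scaled to a common library size) in mutant arches and 3.14 ± 1.05 CPM in wild-type arches (SD, n = 6 and 5). Ryr2 no longer passed when a score of sex-linked transcripts was added to the fit. These transcripts set most mutant libraries apart from all wild-type ones. The transcripts of the store pump gene Atp2a2, the store-entry genes Stim1 and Orai1, the plasma membrane pump gene Atp2b4 and the L-type channel gene Cacna1c did not pass the test. The 10 genes were chosen by name: Cacna1c, Cacna1h, Ryr2, Itpr1, Atp2a2, Atp2b4, Pln, Casq2, Stim1 and Orai1. All 10 were found among 48709 mouse genes in the count table, and 9 of them were also in the smaller table of normalized values, which does not list Cacna1h.

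The mutant mice (Het, n = 6) had 1 Tgfbr2 allele with the G357W substitution and 1 wild-type allele, and their WT littermates (n = 5) carried 2 wild-type alleles of this TGF-beta receptor gene. All were sampled at postnatal day 11 with no treatment named. The labels give the arch as vascular smooth muscle and endothelial cells, and each library was taken as 1 animal, since the design text counts as many mice as there are libraries. Libraries held between 13113467 and 19327935 counts on mouse genes. Tgfbr2 itself averaged 39.0 ± 8.22 CPM in Het and 41.3 ± 4.29 CPM in WT (SD, n = 6 and 5), a difference that did not pass the test, and gene counts cannot say which allele a read came from.

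Smooth muscle markers were abundant, with a summed level of 31047 to 42284 CPM in Het libraries and 34267 to 39206 CPM in WT libraries. The endothelial markers summed to 475 to 777 CPM in Het and 482 to 631 CPM in WT. Fibroblast markers, which the labelled cell types do not cover, summed to 10462 to 16380 CPM in Het and 10554 to 19916 CPM in WT, and brown fat markers to 391 to 2394 CPM in Het and 877 to 3152 CPM in WT. Xist, the transcript of the inactive X chromosome, had at least 100 counts in Het 1, Het 2 and every WT library, while Het 3 to Het 6 had at most 10 and carried Y-linked Ddx3y counts. Of the tested markers, Cnn1 of smooth muscle and Pi16 of fibroblasts fell in Het, Dio2 of brown fat rose, and no endothelial marker passed edgeR's test. The labels do not give sex, so genotype and sex can be told apart only through Het 1 and Het 2.

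In a smooth muscle cell, calcium enters through voltage-gated channels of the plasma membrane and leaves an internal store, the sarcoplasmic reticulum, through ryanodine and inositol trisphosphate receptors. SERCA pumps, restrained by phospholamban, return it to the store, where calsequestrin binds it. An emptied store is sensed by STIM proteins, which open ORAI channels at the surface, while plasma membrane pumps export calcium from the cell. Calcium bound to calmodulin starts contraction of vascular smooth muscle.

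Het was compared with WT across 14757 genes with enough counts, by edgeR's quasi-likelihood test with Benjamini-Hochberg adjustment and a threshold of 0.05. Of the 10 calcium genes, 8 were tested, and Cacna1h and Casq2 had too few counts. Of these 8, 1 rose and 0 fell, against 2.65% of all tested genes higher in Het and 2.38% lower. As a share, 1 of 8 is 12.5%, against 5.03% of all genes called in either direction. The log2 fold change was positive for 3 genes and negative for 5, with a median of -0.10, beside -0.0046 over all tested genes.

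**Figure D1:**
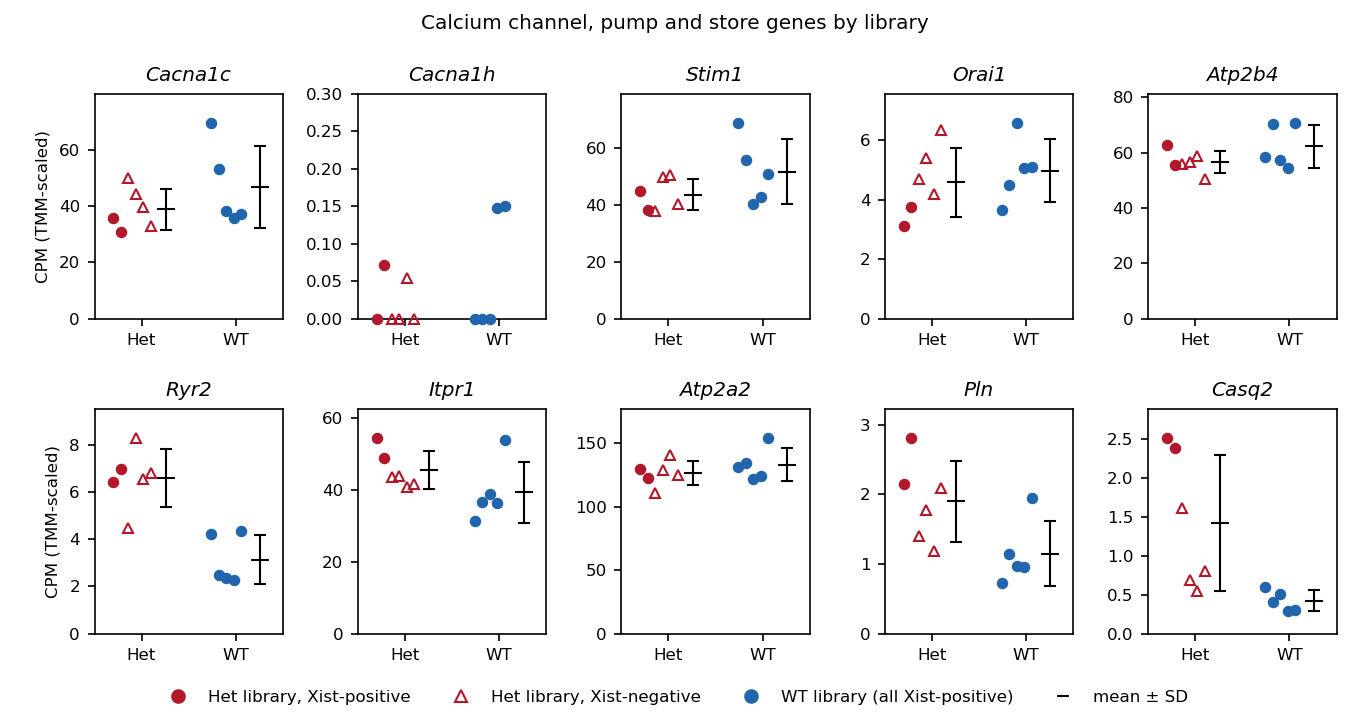
Each point is 1 library, with CPM on the y axis of each panel (its own scale) and bars for mean ± SD, Het left of WT; open triangles are Xist-negative Het libraries and no bar is drawn for Cacna1h. All 6 Het libraries lie above all 5 WT libraries for Ryr2 (4.48 to 8.31 CPM in Het, 2.28 to 4.34 CPM in WT), while the groups overlap for the other 9 genes.

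Ryr2 (GRCm38 chr13:11553102-12106945, minus strand), one of the store's release channels, rose in Het arches. Its values were 6.43, 6.99, 4.48, 8.31, 6.56 and 6.81 CPM in Het libraries 1 to 6, and 4.24, 2.48, 2.36, 2.28 and 4.34 CPM in WT libraries 1 to 5. The groups did not overlap, though Het 3, the lowest Het library, stood just above WT 5, the highest WT library. Across all tested genes, 2.41% had every Het library above every WT library and 2.2% had every one below.

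Ryr2 had a log2 fold change of 1.07 ± 0.23 (SE), a fold of 2.11, with adjusted p = 0.0134 in edgeR's quasi-likelihood test. Its 95% interval ran from 0.58 to 1.57. These levels rest on 61 to 121 counts per Het library and 31 to 64 per WT library. By counting error alone, the Poisson interval of Het 3 (3.43 to 5.76 CPM) overlapped that of WT 5 (3.29 to 5.60 CPM). Because these are bulk libraries, a change in the number of cells of a type and a change in RNA per cell cannot be told apart.

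The size of the Ryr2 difference stayed between 0.90 and 1.21 on the log2 scale in 27 alternative analyses, while its adjusted p (edgeR, limma or DESeq2) ran between 3.52e-04 and 0.297. It was 0.159 with a sex score as a covariate, where the log2 fold change was 1.07 ± 0.31, and 0.297 in the 7 Xist-positive libraries alone, where it was 1.10 ± 0.33. In those 7 libraries Ryr2 was 6.43 and 6.99 CPM in Het 1 and Het 2, and at most 4.34 CPM in WT. The 4 Xist-negative Het libraries spanned 4.48 to 8.31 CPM and enclosed both Xist-positive ones. Leaving out any 1 library kept the call, with adjusted p from 0.0098 to 0.0418 in edgeR's test. Column names of the deposited counts also carry a number, 6 or 7, that the labels do not explain. This number was 6 for Het 1, Het 2, Het 4, Het 5 and WT 3, and 7 for the other libraries, so it was spread unevenly over genotype. With it as a covariate, the Ryr2 log2 fold change was 1.05 ± 0.28 with adjusted p = 0.0652 (edgeR).

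**Figure D2:**
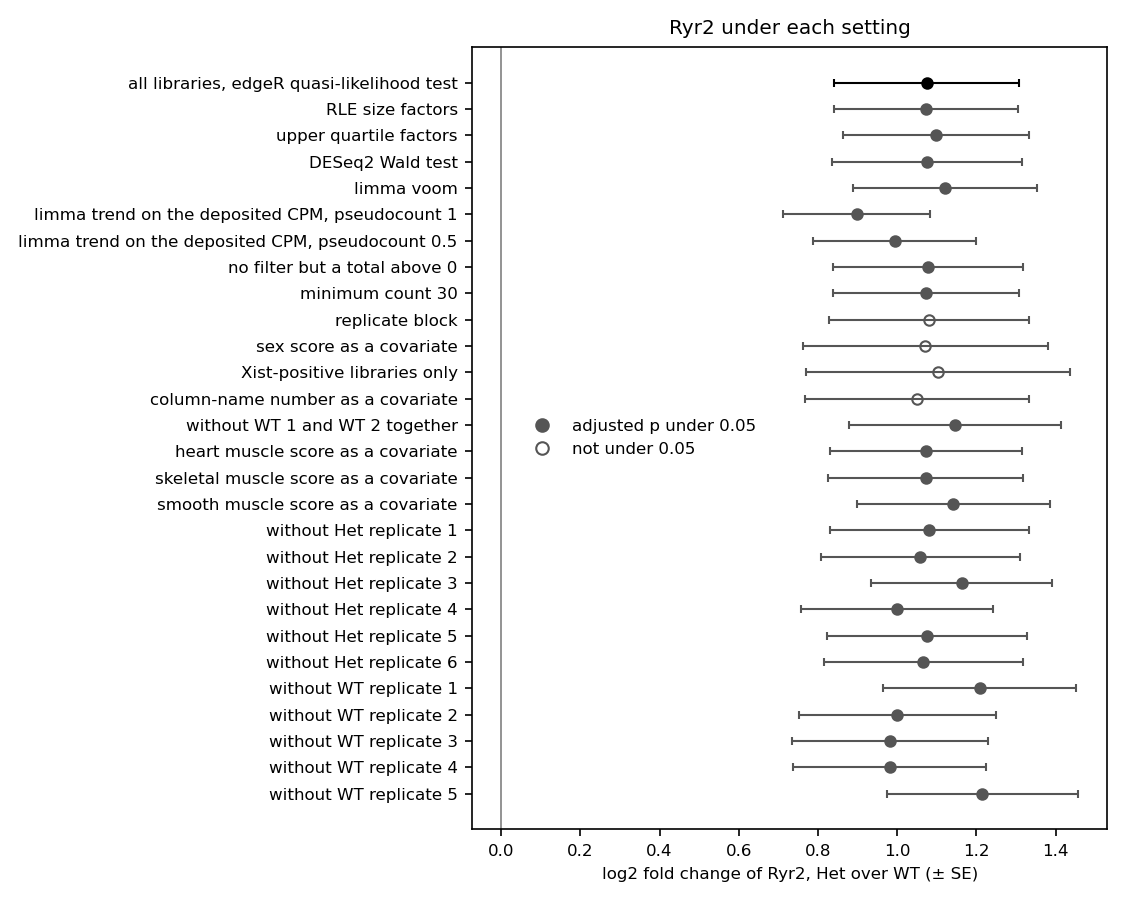
The log2 fold change of Ryr2, Het over WT (x axis, ± SE), is shown for each analysis setting (y axis), filled where the adjusted p was under 0.05. All values lie between 0.90 and 1.21, and the 4 open points are the replicate block, the sex score, the Xist-positive libraries and the column-name number.

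Heart muscle also uses Ryr2, and none of its tested markers passed the test. The 12 heart muscle markers summed to 61.0 to 94.3 CPM in Het and 70.5 to 93.8 CPM in WT, much of it from Myl4, which averaged 54.3 CPM in Het and 46.7 CPM in WT. Of them, 7 were tested and 0 were called by edgeR, while Nppa, Myl2 and Nkx2-5 had at most 5 counts in any library. With the heart muscle score as a covariate, the Ryr2 log2 fold change was 1.07 ± 0.24 with adjusted p = 0.0217, and with the smooth muscle score the adjusted p was 0.0166 (edgeR). The heart muscle score averages log2 CPM over all 12 markers, those with few counts included. It overlapped between groups, at -0.77 to 0.02 in Het and -0.56 to 0.06 in WT. The part of heart muscle in the Ryr2 values was not tested.

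The tested genes whose pattern over the 11 libraries lay closest to that of Ryr2 were Prex2, Bves and Ncs1. Likeness was the root mean square difference of centred log2 CPM, which was 0.27 for Prex2, 0.32 for Bves and 0.32 for Ncs1. Centring was over all 11 libraries and not within genotype, so this measure favours genes that are higher in Het. The group means of these genes are thus no separate result. Prex2, an exchange factor for Rac, averaged 26.7 CPM in Het and 15 CPM in WT. Bves, a membrane protein of muscle that binds cyclic AMP, averaged 7.54 CPM in Het and 4.67 CPM in WT, and Ncs1, a neuronal calcium sensor protein, averaged 235 CPM in Het and 126 CPM in WT.

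Itpr1 (chr6:108213096-108551109, plus strand) encodes the inositol trisphosphate receptor that releases store calcium after receptor signalling. It was lowest at 40.8, had a median of 43.8 and was highest at 54.5 CPM in Het, against 31.3, 36.6, 38.9, 36.5 and 53.8 CPM in WT. WT 5 reached nearly to the top of the Het range and the groups overlapped. Within Het, the 2 Xist-positive libraries had 48.9 and 54.5 CPM, above the 4 Xist-negative ones at 40.8 to 44.0 CPM. Its log2 fold change of 0.21 ± 0.13 did not pass edgeR's test (adjusted p = 0.405), with a 95% interval of -0.06 to 0.48. Set side by side per kilobase of exon, Itpr1 was 11.2 ± 2.61 times Ryr2 in Het and 21.1 ± 5.84 times Ryr2 in WT (SD, n = 6 and 5), with 4 of 6 Het libraries below every WT library.

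Atp2a2 (chr5:122453513-122502225, minus strand) encodes SERCA2, the pump that refills the store. It had the highest level per length of the 10 genes, at 20.8 ± 1.58 CPM per kilobase in Het and 21.9 ± 2.10 in WT (SD, n = 6 and 5). As CPM it ranged from 110.9 through a median of 126.8 to 140.2 in Het, and was 130.8, 134.4, 122.0, 123.9 and 154.0 in WT. The groups overlapped, and the log2 fold change was -0.08 ± 0.08 (edgeR adjusted p = 0.685), with a 95% interval of -0.25 to 0.10. Of the 6081 exon bases of Atp2a2, 83 are shared with Gm43361 on the opposite strand. Gm43361 averaged 183.4 CPM in Het and 235.7 CPM in WT, and unstranded reads from either gene cannot be told apart there.

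Pln (chr10:53337667-53345987, plus strand) encodes phospholamban, the small membrane protein that inhibits SERCA2. Its values were 2.14, 2.81, 1.40, 1.77, 1.19 and 2.09 CPM in Het 1 to Het 6, and 0.728, 1.14, 0.976, 0.955 and 1.94 CPM in WT 1 to WT 5. Het 1, Het 2 and Het 6 stood above every WT library, and WT 5 stood within the Het range. Within Het, the Xist-positive Het 1 and Het 2 were above the 4 Xist-negative libraries, which spanned 1.19 to 2.09 CPM. Pln had a log2 fold change of 0.73 ± 0.34 and did not pass edgeR's test (adjusted p = 0.248). Its 95% interval reached from 0.01 to 1.44.

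The ratio of Pln to Atp2a2 per kilobase was 0.0334 ± 0.0107 in Het and 0.0187 ± 0.0057 in WT (SD, n = 6 and 5), with 4 of 6 Het libraries above every WT library. This ratio is given as a description with no test. Pln rests on 19 to 39 counts per Het library and 11 to 26 per WT library. Of the 2759 exon bases of Pln, 1644 are shared with Gm47644 and 141 with Cep85l on the opposite strand, and unstranded reads from these genes cannot be told apart there.

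Casq2 (chr3:102086415-102146514, plus strand) encodes the calsequestrin of heart and smooth muscle, which binds calcium inside the store. It had 2.51, 2.38, 1.62, 0.692, 0.542 and 0.809 CPM in Het 1 to Het 6, against 0.596, 0.402, 0.513, 0.294 and 0.299 CPM in WT 1 to WT 5. All Het libraries but Het 5 stood above every WT library, and Het 5 was below WT 1 alone. The counts were few, at 9 to 34 per Het library and 4 to 10 per WT library, and Casq2 did not pass the filter on low counts.

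Tested without that filter, Casq2 had a log2 fold change of 1.72 ± 0.51 with adjusted p = 0.0729 in edgeR's test, short of the threshold. Its adjusted p ran from 0.0726 to 0.134 in edgeR's test over the 7 alternatives that kept the gene. These were the Xist-positive libraries alone and the fits that left out WT libraries. Smaller groups eased the filter there, and the gene passed it through the higher Het libraries. They therefore add no support of their own. The 2 Xist-positive Het libraries had 2.38 and 2.51 CPM, while the 4 Xist-negative ones spanned 0.542 to 1.62 CPM. The brown fat marker Ucp1, at 729, 1283 and 1031 CPM in Het 1 to Het 3 and 189, 147 and 578 CPM in Het 4 to Het 6, was also higher in the first 3 libraries. Yet WT 5, with 1437 CPM of Ucp1, had 0.299 CPM of Casq2, and the part of brown fat in the Casq2 values was not tested.

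**Figure D3:**
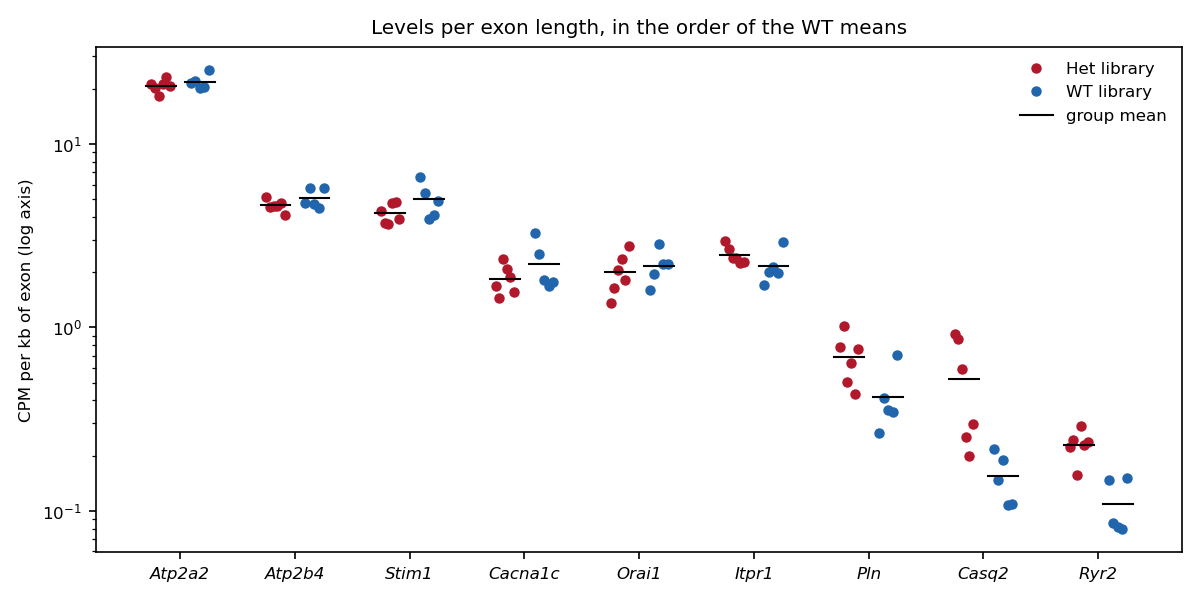
Points are libraries, with the level in CPM per kilobase of exon on a log y axis and genes on the x axis, Het left of WT for each; Cacna1h is left out because it was at 0 in 7 libraries. Atp2a2 stands highest in both groups (20.8 in Het, 21.9 in WT) and Ryr2 lowest of those drawn (0.229 in Het, 0.109 in WT).

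Stim1 (chr7:102267806-102437319, plus strand) encodes the store's calcium sensor. Its values ran from 38.0 through a median of 42.5 to 50.3 CPM in Het, and were 68.8, 55.7, 40.2, 42.6 and 50.8 CPM in WT. WT 1, WT 2 and, narrowly, WT 5 stood above every Het library, while WT 3 and WT 4 lay within the Het range. A log2 fold change of -0.25 ± 0.13 did not pass edgeR's test (adjusted p = 0.341), with a 95% interval of -0.53 to 0.04. Without WT 1 and WT 2 it was -0.03.

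Orai1 (chr5:123015074-123030456, plus strand) encodes the surface channel that STIM proteins open. It had 3.10 as its lowest, 4.44 as its median and 6.34 as its highest CPM in Het, against 3.64, 4.49, 6.57, 5.07 and 5.08 CPM in WT. Within Het, the 2 Xist-positive libraries had 3.10 and 3.75 CPM, below the 4 Xist-negative ones at 4.17 to 6.34 CPM. The groups overlapped and the log2 fold change was -0.12 ± 0.22 (edgeR adjusted p = 0.821), with a 95% interval of -0.59 to 0.34. The Orai1 to Stim1 ratio per kilobase was 0.482 ± 0.142 in Het and 0.466 ± 0.188 in WT (SD, n = 6 and 5).

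Cacna1c (chr6:118587240-119196418, minus strand) encodes the pore of the L-type channel, the main voltage-gated calcium entry of arterial smooth muscle. It ranged from 30.6 through a median of 37.5 to 49.8 CPM in Het, and was 69.5, 53.1, 38.3, 35.9 and 37.2 CPM in WT. As with Stim1, WT 1 and WT 2 stood above every Het library, and the other WT libraries overlapped with Het. Cacna1c had a log2 fold change of -0.27 ± 0.18 (edgeR adjusted p = 0.435), with a 95% interval of -0.65 to 0.10, and it was 0.06 without WT 1 and WT 2.

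Cacna1h (chr17:25374285-25433783, minus strand), the pore of a T-type channel, was at or near 0 throughout. It had 2 counts in all over the 6 Het libraries and 4 over the 5 WT libraries, and no library had more than 2. In the libraries without a Cacna1h count, a count of 0 allows a level of up to 0.155 to 0.228 CPM, depending on the library. No difference in Cacna1h was detectable at this depth.

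Atp2b4 (chr1:133699457-133801041, minus strand) encodes a plasma membrane pump that exports calcium. It ran from 50.4 through a median of 56.2 to 62.8 CPM in Het, and was 58.4, 70.3, 57.4, 54.5 and 70.7 CPM in WT. WT 2 and WT 5 stood above every Het library, and the groups overlapped. Atp2b4 had a log2 fold change of -0.14 ± 0.09 (edgeR adjusted p = 0.461), with a 95% interval of -0.33 to 0.06.

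Ordered by level per kilobase in WT, the genes ran Atp2a2, Atp2b4, Stim1, Cacna1c, Orai1, Itpr1, Pln, Casq2, Ryr2 and Cacna1h. The order in Het differed only among the middle genes, with Itpr1 before Orai1 and Cacna1c. Atp2b4 and Stim1 stood close, at 4.62 ± 0.332 and 4.20 ± 0.533 CPM per kilobase in Het and 5.08 ± 0.625 and 4.98 ± 1.10 in WT (SD, n = 6 and 5). Cacna1c, Orai1 and Itpr1 also lay within their spread of each other in WT, at 2.21 ± 0.683, 2.17 ± 0.467 and 2.15 ± 0.463 CPM per kilobase. These lengths count every annotated exon base, so a gene read mainly as a short isoform is understated.

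The rest of the calcium machinery was read from 9 lists holding 118 genes, the 10 included, of which 116 were found and 89 tested. Of these 89, 6 rose and 4 fell, or 11.2% called against 5.03% of all tested genes, with a median log2 fold change of -0.08. Apart from the 10 genes, 81 were tested, 5 rose and 4 fell. Called genes with a mean of at least 1 CPM were Ryr2, Hrc, Atp2b1, Micu3 and Calm2, higher in Het, and Casq1, Jph4, Saraf and Stimate, lower in Het. With the sex score as a covariate, 0 of the 89 passed in edgeR's test, against an unadjusted p under 0.05 for 16, with adjusted p of the 10 called genes between 0.0553 and 0.589, and over all alternatives it lay between 1.40e-07 and 0.664.

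**Figure D4:**
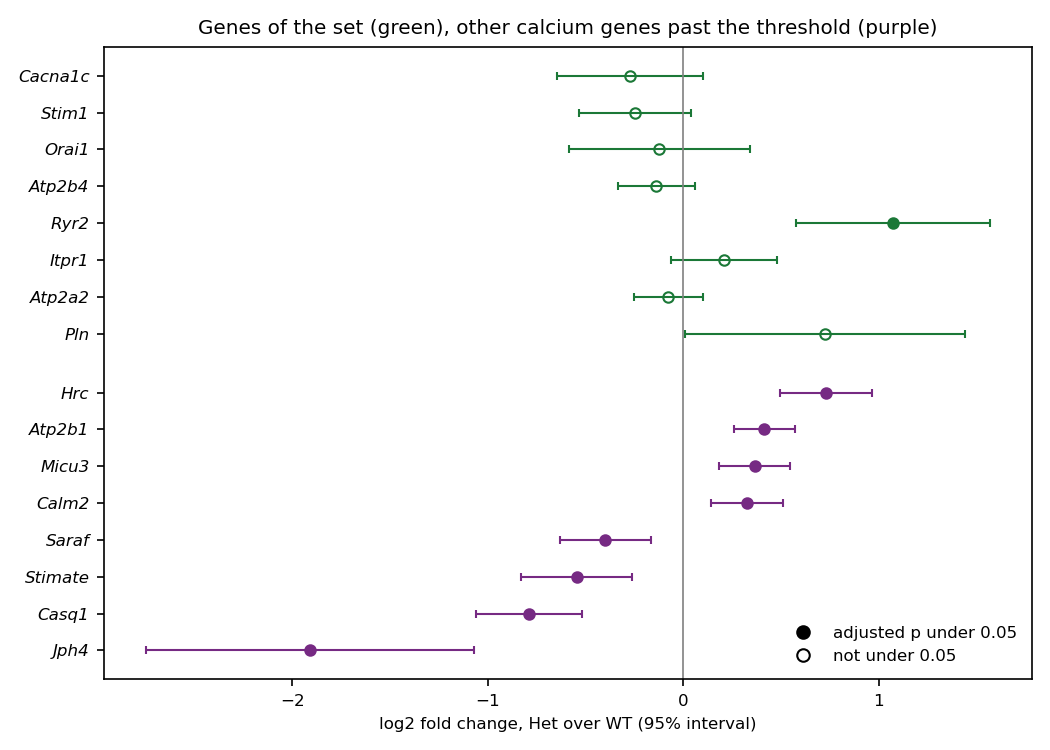
Log2 fold change, Het over WT, with 95% intervals (x axis) for the tested genes of the set in green and other called calcium genes averaging 1 CPM or more in purple; filled points have adjusted p under 0.05. In the green group only Ryr2 is filled, at 1.07, and the intervals of the others but Pln include 0.

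Of 10 tested genes for store buffers and junction proteins, 1 rose and 2 fell, against 2.65% of all tested genes higher in Het and 2.38% lower, with a median log2 fold change of -0.06. Casq1, the calsequestrin best known from fast skeletal muscle, fell to 283.8 ± 52.6 CPM in Het, against 490.1 ± 58.6 CPM in WT (SD, n = 6 and 5), a log2 fold change of -0.79 ± 0.13 with adjusted p = 0.00185 in edgeR's test. All 6 Het libraries were below all WT libraries, as for 2.2% of all tested genes, while 2.41% had all Het libraries above. Hrc, a calcium-binding protein of the store that also binds SERCA2, rose to 61.1 ± 5.81 CPM in Het, against 36.9 ± 6.04 CPM in WT, a log2 fold change of 0.73 ± 0.11 with adjusted p = 0.0011, and all 6 Het libraries were above all WT libraries.

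Casq1 is also a gene of skeletal muscle, whose 12 markers summed to 40.2 to 64.1 CPM in Het and 61.7 to 79.2 CPM in WT; of 5 tested, Tnnt3 and Tnni2 fell. The other tested markers did not pass edgeR's test, with log2 fold changes of 0.55 for Acta1, 0.10 for Mybpc2 and 0.07 for Mylpf, and Myh1, Myh2, Myh4, Myh8 and Tnnc2 had at most 5 counts in any library. With the skeletal muscle score as a covariate, the Casq1 log2 fold change was -0.74 ± 0.13 with adjusted p = 0.00494 (edgeR). That score averages log2 CPM over all 12 markers, those with few counts included. It overlapped between groups, at -2.04 to -0.81 in Het and -1.45 to -0.88 in WT, though Tnnt3 and Tnni2 fell. The part of skeletal muscle in the Casq1 values was not tested. Per kilobase, Casq1 was 398 ± 260 times Casq2 in Het and 1765 ± 551 times Casq2 in WT (SD, n = 6 and 5), a ratio chosen after its values were seen, with all 6 Het libraries below all WT libraries. It is imprecise, since it rests on 9 to 34 Casq2 counts per Het library and 4 to 10 per WT library.

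Jph4, a junctophilin that holds store and surface membranes together, was low in all libraries, at 0.626 ± 0.0941 CPM in Het and 2.38 ± 1.64 CPM in WT (SD, n = 6 and 5). It fell by 1.91 ± 0.39 on the log2 scale (edgeR adjusted p = 0.0103), with WT 1 at 5.23 CPM, and without WT 1 and WT 2 the difference was -1.23 with adjusted p = 0.110. Of the other tested store buffers and junction genes, 7 did not pass. Fkbp1a, which binds ryanodine receptors, averaged 418 CPM in Het and 405 CPM in WT.

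Among store-operated entry genes, 9 were tested and 2 fell, or 22.2% against 2.38% of all tested genes lower in Het, with a median log2 fold change of -0.15. Stimate, which promotes STIM1 activation, averaged 122.8 CPM in Het and 179.1 CPM in WT, with a log2 fold change of -0.54 ± 0.13 (edgeR adjusted p = 0.0278). Saraf, which limits store-operated entry, averaged 133 CPM in Het and 175 CPM in WT, with a log2 fold change of -0.40 ± 0.11 (adjusted p = 0.0474). Both calls depended on which library was left out: Stimate lost it without Het 2, Het 3, Het 6, WT 1 or WT 2 (adjusted p up to 0.0793), and Saraf without any of 8 libraries, that is, Het 2 to Het 6 and WT 1 to WT 3 (up to 0.128).

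**Figure D5:**
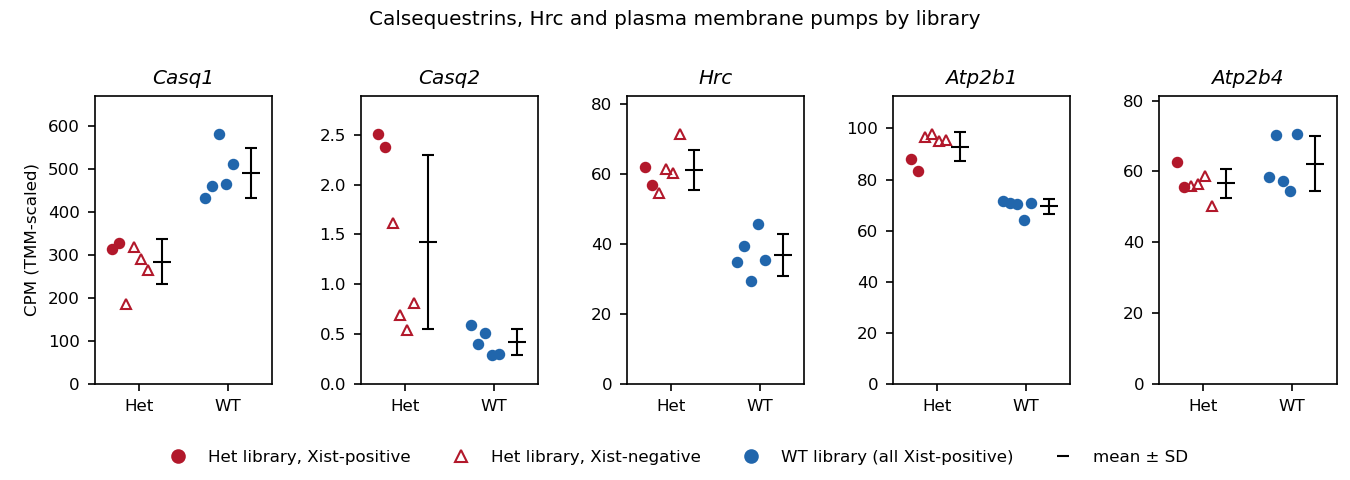
Points are libraries, with CPM on the y axis, Het left of WT, with bars for mean ± SD and open triangles for Xist-negative Het libraries. Casq1 is lower and Hrc and Atp2b1 higher in every Het library than in any WT library, while Casq2 and Atp2b4 overlap between groups. Of all tested genes, 2.2% were lower and 2.41% higher in this way.

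Of the plasma membrane pumps and exchangers, 7 were tested and 1 rose, or 14.3% against 2.65% of all tested genes higher in Het, with a median log2 fold change of 0.35. Atp2b1, a pump of the same family as Atp2b4, averaged 92.8 ± 5.70 CPM in Het and 69.6 ± 2.97 CPM in WT (SD, n = 6 and 5). Atp2b1 rose by a log2 fold change of 0.42 ± 0.07 (edgeR adjusted p = 0.00377), and all 6 Het libraries were above all WT libraries, as for 2.41% of all tested genes. Per kilobase, Atp2b1 was 1.33 ± 0.143 times Atp2b4 in Het and 0.908 ± 0.0919 times Atp2b4 in WT, with no overlap, a ratio also chosen after its values were seen. Of the voltage-gated subunits, 12 were tested and 0 were called by edgeR, against 5.03% of all tested genes. An unadjusted edgeR p under 0.05 was reached by 3 of the 12, near the 19.4% of all tested genes that reached it. DESeq2 called 2 of the 12, and 1295 of all 14757 tested genes.

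Cacnb2, a beta subunit that supports the L-type channel, and Cacna1e, the pore of an R-type channel, were the 2 that DESeq2 called and are named after their values were seen. Cacnb2 averaged 11.5 ± 2.10 CPM in Het and 7.92 ± 0.627 CPM in WT, a log2 fold change of 0.53 ± 0.15 (edgeR adjusted p = 0.0541, and 0.0130 to 0.325 over the alternatives). Cacna1e averaged 4.04 ± 2.56 CPM in Het and 9.82 ± 2.43 CPM in WT, a log2 fold change of -1.28 ± 0.39 (edgeR adjusted p = 0.0766, and 0.0168 to 0.632 over the alternatives). Cacnb3, the most abundant subunit, averaged 66.5 ± 9.39 CPM in Het and 58.2 ± 19.5 CPM in WT (SD, n = 6 and 5) and did not pass (adjusted p = 0.613), though it did without WT 1 and WT 2 (0.0155).

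Micu3 and Calm2, from the lists of mitochondrial uptake and of calmodulin and its partners, also rose, as 1 of 10 tested genes and 1 of 21, against 2.65% of all tested genes. Micu3, a regulator of mitochondrial calcium uptake, averaged 297 CPM in Het and 231 CPM in WT (log2 fold change 0.37 ± 0.08, edgeR adjusted p = 0.0199), and lost the call without Het 5 or WT 2 (adjusted p up to 0.0518). Calm2, 1 of 3 calmodulin genes, averaged 386 CPM in Het and 308 CPM in WT (log2 fold change 0.33 ± 0.09, edgeR adjusted p = 0.0419), and kept the call only when the library left out was WT 4 (adjusted p up to 0.110 without another).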

How the data were processed

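RNA of the aortic arch was sequenced as unstranded Nextera XT libraries, 75 nt single reads on a NextSeq 500 over 2 pooled runs, per the labels' protocols. GRCm38 and the tools STAR 2.5.2a, limma, edgeR and DESeq2 are listed, without roles, in the submitters' processing notes. Neither the counter nor the annotation release is given in the sources used here. The authors deposited whole-number counts for 48733 features, of which 24 that name no mouse gene (4 to 11 counts per library, at most 8.1e-05 percent) were left out. A deposited table of TMM-scaled CPM, handled here as a signal because its columns sum to 966683 to 1026471, served only for 2 limma alternatives. Gene positions and exon lengths come from GENCODE M21 (GRCm38, positions counted from 1), where 48349 of 48709 IDs matched.

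Low genes were removed with filterByExpr at a minimum count of 10 and a minimum total of 15. Counts were then scaled by TMM factors of 0.979 to 1.031 and tested with the robust quasi-likelihood test (edgeR 4.0.16, R 4.3.3), Het against WT in all 11 libraries without covariates, at a Benjamini-Hochberg adjusted p under 0.05. CPM in the text use the TMM factors. The SE is the log2 fold change divided by the square root of F. On simulated counts of 14757 genes, this fit recovered 31.3% of genes changed 1.5-fold, 64.2% of those changed 2-fold and 95.5% of those changed 4-fold. Of its 136 calls, 9 were false, and 1 gene was called where nothing was changed. The changed genes were drawn from all levels, so recovery among genes with few counts is not given. Counting intervals and limits of 0 counts (3 counts) cover counting error only, and p-values measure the spread between these libraries. Alternatives used limma 3.58.1 and DESeq2 1.42.0.

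The 10 genes, the calcium lists and the marker lists were chosen with earlier results of these data known, so no test over a list is given. Named are the 10 genes and Tgfbr2; per calcium list, called genes with a mean of at least 1 CPM and the most abundant genes; and the 3 genes closest in pattern to Ryr2. Cacnb2, Cacna1e, Ucp1, Cep85l, Gm47644, Gm43361, Tnnt3, Tnni2, Acta1, Mybpc2, Mylpf, Myl4, Cnn1, Pi16, Dio2, Xist and Ddx3y were named outside this rule, after their values were seen. Of the called calcium genes, 1 is counted in the totals but not reported here.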

Additional observations from a re-analysis of the deposited data

Results flagged for a closer look

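Over 30 genes, each checked in the 6 Het and the 5 WT libraries (60 groups), 5 values stood far from the rest of their group by Dixon's criterion, which chance meets in about 1 group in 20. Cacnb2 was 15.4 CPM in Het 1, against 9.15 to 11.4 CPM in the other Het libraries. Cacnb3 was 84.4 CPM in Het 5, against 57.5 to 67.5 CPM in the other Het libraries. Jph4 was 5.23 CPM in WT 1, against 1.18 to 2.21 CPM in the other WT libraries. Atp2b1 was 64.3 CPM in WT 4, against 70.4 to 71.4 CPM in the other WT libraries. Tgfbr2 was 48.8 CPM in WT 5, against 38.3 to 41.0 CPM in the other WT libraries. For the 10 genes of the set, no library met the criterion.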

How the results depend on the processing

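Over all tested genes, 742 were called. The count was 1295 with DESeq2, 432 without WT 1 and WT 2, 415 with the column-name number as a covariate, 122 with the sex score, 34 in Xist-positive libraries and 458 to 853 when 1 library was left out. Of the 10 genes, 1 was called (Ryr2), against 0 with the sex score, in Xist-positive libraries and with the column-name number (Ryr2 adjusted p = 0.0652, edgeR), and 1 whichever library was left out. Of the 89 calcium genes, 10 were called, against 0 with the sex score, 0 of 91 tested in Xist-positive libraries (13 at an unadjusted p under 0.05), 5 without WT 1 and WT 2, and 6 to 11 when 1 library was left out (6 without Het 3, Het 5, Het 6 or WT 2). Cacna1c reversed to 0.0605 on the log2 scale without WT 1 and WT 2 (adjusted p = 0.891), and Orai1 ran from -0.24 to 0.002 when 1 library was left out, reversing without WT 3 (adjusted p = 0.998), neither past the threshold; the causes were not tested. Of 565 alternative values for 22 genes, 479 kept direction and side of the threshold, 72 lost the threshold, 12 gained it and 2 reversed.

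Replicate numbers in the labels did not pair the libraries: the correlations of same-numbered libraries were -0.029, 0.064, 0.019, -0.029 and -0.197, and only Het 2 was closest to its own number. With the replicate block, 329 genes were called, with 0 of the 10 genes (Ryr2 1.08, adjusted p = 0.0616) and 2 calcium genes, Casq1 and Hrc.

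Counts limit Cacna1h, Casq2 and Pln most. The Xist-positive fit holds 2 Het libraries.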
